A study of Homo sapiens with 8 samples.

Results

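The transcripts followed here encode the subunits of the transcription factor NFkB and the inhibitors that act back on it, in Kasumi-1 cells 6 h after electroporation with messenger RNA. The named genes were the subunit genes NFKB1, NFKB2, REL, RELA and RELB, and the inhibitor and feedback genes NFKBIA, NFKBIB, NFKBIE, TNFAIP3 and BCL3. Every probe set listed with exactly 1 symbol of these genes was taken, which gave 20 probe sets for 9 of the 10 genes, out of 41091 such probe sets for 19775 genes. BCL3 had 0 probe sets of this kind, because both probe sets that list it also list a microRNA gene, and its level was not analysed here. Kasumi-1 is an established acute myeloid leukemia (AML) line that carries the AML-ETO fusion. All 8 arrays were from these cells after electroporation, 3 with RNA for green fluorescent protein (GFP) as the control, 3 with RNA for wild type NR4A1 (NR4A1 WT), and 2 with RNA for NR4A1 CEAA, whose DNA binding domain is mutated. NR4A1 is an orphan nuclear receptor that the cells received as in vitro transcribed RNA, and what share of the cells took it up was not used here. The comparison of both forms with GFP asks which transcripts change within 6 h, and the comparison of both forms with each other asks which of these changes differ when the DNA binding domain is altered. Whether the replicates were separate cultures is not stated in the labels, and the p-values therefore cover the spread among these samples alone, which may be technical.

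NFkB is a dimer of Rel family proteins. RELA, RELB and REL carry transactivation domains, whereas NFKB1 and NFKB2 are made as long precursors that are processed to p50 and p52. In resting cells the IkB proteins, encoded among others by NFKBIA, NFKBIB and NFKBIE, hold the dimers in the cytoplasm until the IkB kinases mark them for degradation. NFKBIA and TNFAIP3, the latter encoding the ubiquitin editing enzyme A20, are themselves classical targets of NFkB and end its activity, and BCL3 is an atypical nuclear IkB protein. REL is expressed mainly in blood cells and is known for its part in lymphocyte activation.

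All values are log2 intensities on Affymetrix U133 Plus 2.0 arrays, and a difference of 1 is a factor of 2. Differences between arrays had a standard deviation (SD) of 0.156 to 0.222 over probe sets within groups (7 pairs) and of 0.286 to 0.408 between groups (21 pairs). The 7 measured myeloid markers of Kasumi-1 (RUNX1T1, KIT, CD34, MPO, ANPEP, PRTN3 and SPI1) lay above the array median in all 8 arrays. Of 12 markers of other cell types, 5 lay above it in all arrays, among them EPCAM at 11.43 to 11.86, and 5 in none. The 3 probe sets of NR4A1 itself read 5.06 to 6.66, and 0 of them were called in any of the 3 comparisons. Where they lie relative to the electroporated coding sequence is not known here, so they do not check the labels. Of the 20 member probe sets, 15 had a mean above the median of all values, and the other 5 are not shown to be above background. These 5 were all 3 of NFKB2, 1 of REL and 1 of NFKBIA. A level above the median does not by itself show expression, since 5 markers of other cell types also lay above it.

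REL was the member gene that rose after NR4A1 WT. Its brightest probe set, 228812_at, read 8.50, 8.62 and 8.65 with GFP, 9.72, 9.70 and 9.62 with NR4A1 WT, and 8.90 and 9.05 with NR4A1 CEAA. All NR4A1 WT arrays stood above all others, and the NR4A1 CEAA arrays stood between the other groups without touching them. NR4A1 WT exceeded GFP by 1.09, a factor of 2.13 (standard error of the log2 difference 0.07, adjusted p = 3.08e-05, limma). After NR4A1 CEAA the difference from GFP was 0.38 (standard error 0.08, adjusted p = 0.0142, limma), a call that ended without NR4A1 CEAA replicate 2 (adjusted p = 0.12, limma) and by Rank Product (q = 0.5). NR4A1 WT exceeded NR4A1 CEAA by 0.71 in this probe set (standard error 0.08, adjusted p = 0.000343, limma). In a population of cells, a larger share of cells with the transcript and more transcript per cell cannot be told apart.

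A pair of further REL probe sets gave a rise of similar size after NR4A1 WT, with no rise called after NR4A1 CEAA. Probe set 235242_at read 8.42, 8.57 and 8.51 with GFP, 9.57, 9.62 and 9.59 with NR4A1 WT, and 8.45 and 8.57 with NR4A1 CEAA. The NR4A1 WT arrays were apart from the rest, and the NR4A1 CEAA arrays lay within the range of GFP. NR4A1 WT differed from GFP by 1.09 (adjusted p = 1.91e-05, limma), whereas NR4A1 CEAA differed by 0.01 (95% interval -0.16 to 0.17, adjusted p = 0.975, limma). Probe set 206036_s_at read 7.35, 7.24 and 7.40 with GFP, 8.56, 8.70 and 8.57 with NR4A1 WT, and 7.31 and 7.50 with NR4A1 CEAA. It showed the same order of groups, with a difference of 1.28 for NR4A1 WT (standard error 0.08, adjusted p = 2.16e-05, limma) and of 0.08 for NR4A1 CEAA (95% interval -0.12 to 0.28, adjusted p = 0.624, limma). Both probe sets were higher after NR4A1 WT than after NR4A1 CEAA, by 1.09 and 1.20 (adjusted p = 3.2e-05 and 4.55e-05, limma). Ordered from the largest rise after NR4A1 WT, the REL probe sets 206036_s_at, 235242_at and 228812_at ranked 145, 201 and 203 among 41091. Rank Product, the test named in the methods of the study, also passed all 3 as higher than GFP (q = 0.000839 to 0.00197). When each array was left out in turn, the differences from GFP of these 3 probe sets stayed between 1.04 and 1.32 and all calls held.

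The other 2 REL probe sets did not follow this pattern. Probe set 239486_at read 6.16, 6.92 and 6.63 with GFP, 8.09, 7.12 and 6.79 with NR4A1 WT, and 7.76 and 7.82 with NR4A1 CEAA. Replicate 1 of NR4A1 WT was far above the other NR4A1 WT arrays, one of which lay within the range of GFP, while both NR4A1 CEAA arrays were above GFP. The difference from GFP was 0.77 after NR4A1 WT (95% interval 0.06 to 1.47, adjusted p = 0.163, limma) and 1.22 after NR4A1 CEAA (95% interval 0.42 to 2.01, adjusted p = 0.0474, limma). The former passed with an intensity trend (adjusted p = 0.0313, limma). The latter call ended without any of the GFP arrays, without either NR4A1 CEAA array or without NR4A1 WT replicate 2 (adjusted p = 0.0547 to 0.2, limma), although Rank Product passed it (q = 0.0112). In this probe set NR4A1 WT and NR4A1 CEAA differed by -0.45 (adjusted p = 0.403, limma), and by -0.83 (adjusted p = 0.0336, limma) without NR4A1 WT replicate 1. The dimmest REL probe set, 206035_at, read 3.57 to 4.30 in all arrays and is not shown to be above background. It had no call in the 3 comparisons (adjusted p = 0.377, 0.321 and 0.0514, limma). Its difference of 0.50 between NR4A1 WT and NR4A1 CEAA passed in limma with an intensity trend (adjusted p = 0.0238), with the arrays of these 2 groups alone (0.0128), with arrays centered on their medians (0.0403), with a replicate block (0.0247) and without GFP replicate 3 (0.0053). Without that GFP array it also passed as lower after NR4A1 CEAA than in the GFP arrays (difference -0.45, adjusted p = 0.0305, limma). Which part of the REL transcript each probe set detects was not known here.

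**Figure D1:**
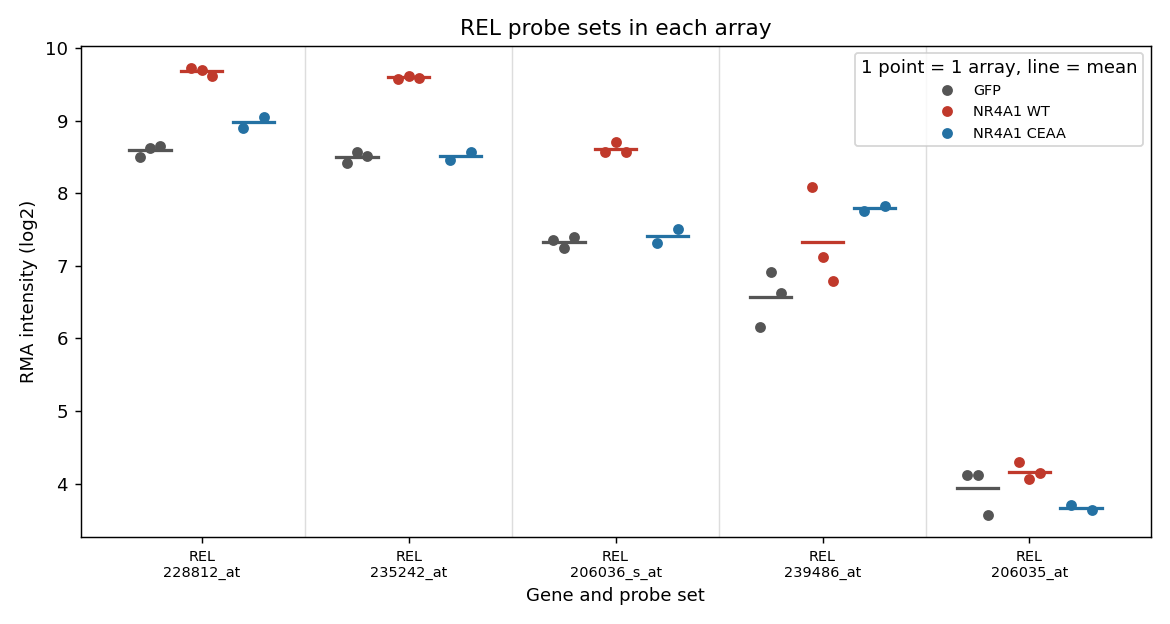
Log2 RMA intensity (y axis) of the 5 REL probe sets (x axis) in each array, for 3 GFP, 3 NR4A1 WT and 2 NR4A1 CEAA arrays; points are single arrays and lines are group means. In 228812_at, 235242_at and 206036_s_at the NR4A1 WT arrays stand above all others, while in 239486_at the NR4A1 CEAA arrays, at 7.76 and 7.82, have the highest mean.

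The REL promoter window is shown because REL carried the largest rise of the members. It holds 250 bases before and 50 bases after the start in RefSeq (GRCh38.p14, chr2:60881324-60881623, plus strand), with matches to the kappaB consensus, the DNA motif that NFkB dimers bind, in capitals.
REL: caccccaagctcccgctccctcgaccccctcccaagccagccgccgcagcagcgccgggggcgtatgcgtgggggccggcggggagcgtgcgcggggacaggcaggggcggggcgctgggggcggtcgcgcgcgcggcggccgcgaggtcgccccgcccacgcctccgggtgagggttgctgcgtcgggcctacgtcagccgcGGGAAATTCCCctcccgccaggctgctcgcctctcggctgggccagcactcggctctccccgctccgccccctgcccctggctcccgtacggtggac
The capitals mark a match on each strand, from -47 to -38 and from -46 to -37 relative to the start, which overlap each other. Windows of this kind were given for 8 of the member genes, 13 windows in all since some genes have several starts, and those of RELB and NFKBIE were not given. The kappaB consensus was found on either strand in 8 of the 13 windows, of 7 genes, against 11.3% of 35116 windows of all genes. The NR4A response element NBRE (AAAGGTCA) was found in 0 of the 13 windows on either strand, against 1.22% of all windows. The core CCGGAA of the ETS factor motif was found in 2 of the 13 windows, 1 of RELA and 1 of NFKBIB, against 17.2% of all windows. These are matches of letters in a short window and no measurement of binding.

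Over all 20 member probe sets, NR4A1 WT had 3 called higher than GFP and 0 called lower (limma, adjusted p under 0.05), all 3 of REL. Among all 41091 probe sets, 6.54% were called higher and 7.07% lower in this comparison. At an unadjusted limma p under 0.05, 5 member probe sets were higher and 2 lower, against 12.6% and 13% of all probe sets. By Rank Product 3 were higher and 0 lower, against 1.6% and 1.46%. The median difference was 0.05 over the member probe sets and 0.00 over all probe sets. Without REL, the 15 other probe sets differed by -0.44 to 0.49, and none of them was called. NR4A1 WT and GFP arrays did not overlap in 5 member probe sets that were higher and in 3 that were lower, where this held for 15% and 15.3% of all probe sets.

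After NR4A1 CEAA, 2 member probe sets were called higher and 3 lower than with GFP (limma), against 7.12% and 8.64% of all probe sets. The higher probe sets were 228812_at and 239486_at of REL, and the lower ones belonged to RELA, RELB and NFKBIA. At an unadjusted limma p under 0.05, 2 were higher and 6 lower, against 13.9% and 15.3%. With Rank Product 1 was higher and 0 were lower, against 0.569% and 0.521% of all probe sets. The count of 5 fell to 1 without NR4A1 CEAA replicate 1, to 2 without NR4A1 CEAA replicate 2, and to 3 without GFP replicate 1 or GFP replicate 2. The shares of all probe sets called without these arrays are not given here, so this fall cannot be read as particular to the members. The median difference was -0.03 over the member probe sets and -0.01 over all. Arrays did not overlap in 3 member probe sets that were higher and in 6 that were lower, where this held for 23.2% and 25.5% of all probe sets.

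Between the 2 forms of NR4A1, 7 of the 20 member probe sets were higher with NR4A1 WT and 0 were lower (limma), against 13.7% and 12.7% of all probe sets. They belonged to 5 genes, with 3 of REL and 1 each of NFKB2, RELA, RELB and NFKBIA. At an unadjusted limma p under 0.05, 8 were higher and 0 lower, against 19.2% and 17.3% of all probe sets. By Rank Product 3 were higher and 0 lower, against 1.12% and 0.664%. The 3 that passed Rank Product were 235242_at and 206036_s_at of REL and 209636_at of NFKB2. The median difference was 0.10 over the member probe sets and 0.02 over all. Arrays of both forms did not overlap in 10 member probe sets that were higher with NR4A1 WT and in 1 that was lower, where this held for 26.9% and 23.3% of all probe sets. The comparisons with GFP share the GFP arrays, and the comparison of both forms uses the NR4A1 WT and NR4A1 CEAA arrays again. Their calls are therefore not independent of each other. The probe sets of RELA, RELB and NFKBIA called here were also called lower after NR4A1 CEAA than with GFP, and not called after NR4A1 WT.

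**Figure D2:**
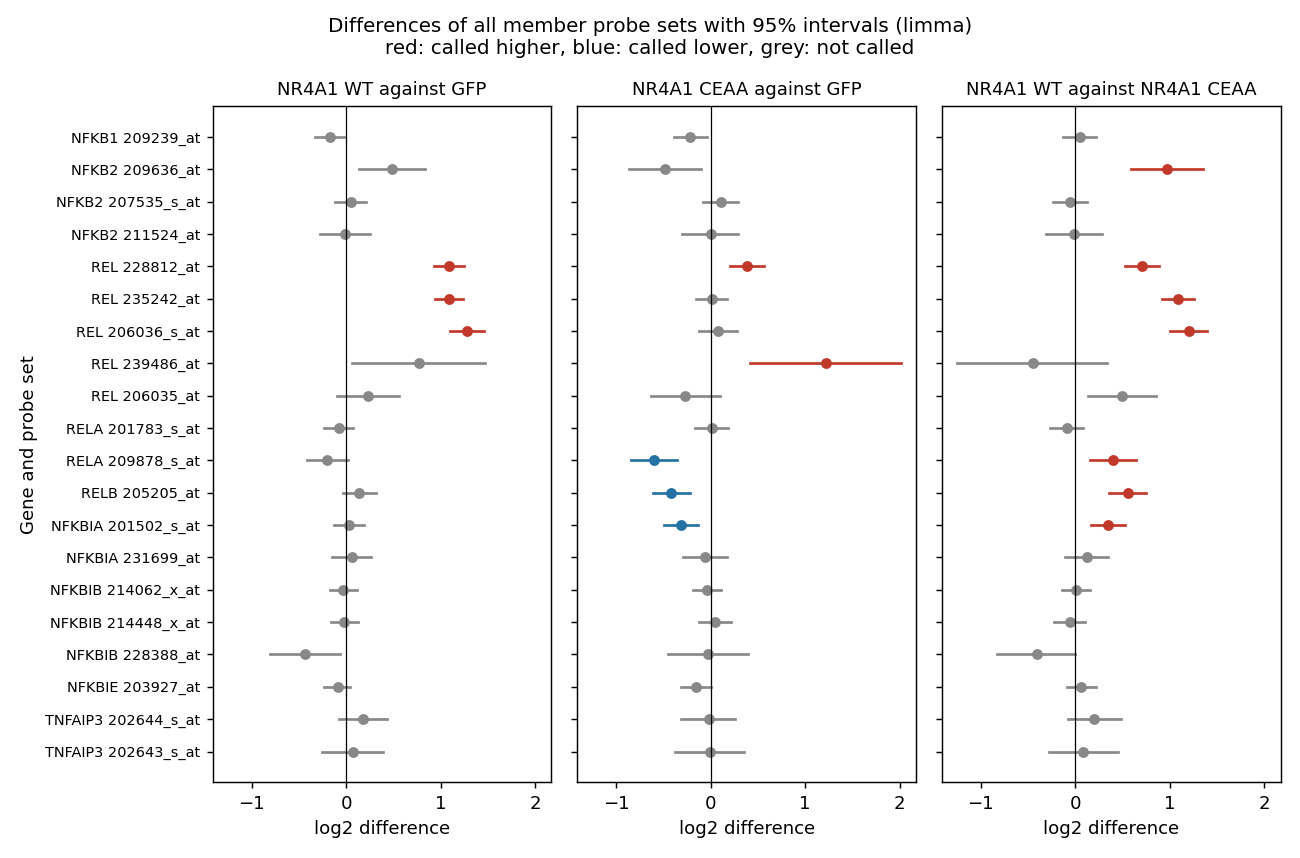
Log2 difference (x axis) of the 20 member probe sets (y axis) in the 3 comparisons, with 95% intervals from limma; red marks probe sets called higher, blue those called lower and grey those not called. Only REL is red in the comparison of NR4A1 WT with GFP, and the 7 red probe sets of NR4A1 WT against NR4A1 CEAA belong to 5 genes.

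RELA, the subunit of the most common NFkB dimer, had no call after NR4A1 WT in either of its probe sets. Its brighter probe set, 201783_s_at, read 8.12, 8.06 and 8.08 with GFP, 8.11, 7.90 and 7.99 with NR4A1 WT, and 8.11 and 8.07 with NR4A1 CEAA. The groups overlapped, with differences from GFP of -0.08 (95% interval -0.24 to 0.07) and 0.01 (95% interval -0.17 to 0.18) and no call (adjusted p = 0.517 and 0.96, limma). The other probe set, 209878_s_at, read 6.81, 6.72 and 6.89 with GFP, 6.49, 6.64 and 6.70 with NR4A1 WT, and 6.07 and 6.36 with NR4A1 CEAA. Both NR4A1 CEAA arrays were below all others, and the difference from GFP was -0.60 (standard error 0.11, adjusted p = 0.00739, limma). That call ended without NR4A1 CEAA replicate 1 (difference -0.45, adjusted p = 0.0692, limma) and by Rank Product (q = 0.208). NR4A1 WT was above NR4A1 CEAA in it by 0.40 (adjusted p = 0.0229, limma), which did not hold without NR4A1 CEAA replicate 1 (adjusted p = 0.193, limma), NR4A1 WT replicate 2 (0.0561) or NR4A1 WT replicate 3 (0.0623). The fall of RELA after NR4A1 CEAA therefore rests on 1 of its 2 probe sets.

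RELB, the subunit that pairs mainly with p52 in the noncanonical pathway, was lower after NR4A1 CEAA. Its 1 probe set read 6.29, 6.28 and 6.26 with GFP, 6.45, 6.42 and 6.38 with NR4A1 WT, and 5.72 and 5.99 with NR4A1 CEAA. The 3 groups did not overlap, with NR4A1 WT highest and NR4A1 CEAA lowest. NR4A1 CEAA differed from GFP by -0.42 (standard error 0.09, adjusted p = 0.0135, limma), which ended without NR4A1 CEAA replicate 1 (difference -0.28, adjusted p = 0.101, limma) and by Rank Product (q = 0.453). NR4A1 WT differed from GFP by 0.14 (95% interval -0.03 to 0.32) and was not called (adjusted p = 0.303, limma). Between NR4A1 WT and NR4A1 CEAA the difference of RELB was 0.56 (standard error 0.09, adjusted p = 0.00163, limma), and it stayed between 0.42 and 0.70, with its call, when each array was left out in turn. Rank Product did not pass it (q = 0.314).

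NFKB1 and NFKB2 encode the precursors of p50 and p52. The 1 probe set of NFKB1 read 8.53, 8.46 and 8.48 with GFP, 8.31, 8.43 and 8.22 with NR4A1 WT, and 8.27 and 8.28 with NR4A1 CEAA. All arrays of both NR4A1 forms were below those with GFP, by -0.17 and -0.22 on average, without a call (adjusted p = 0.152 and 0.0927, limma). The NR4A1 CEAA difference of NFKB1 passed in limma with an intensity trend (adjusted p = 0.028), with array weights (0.0409) or when dim probe sets were dropped (0.0378). NFKB2 had its brightest probe set, 209636_at, at 4.90, 4.57 and 4.25 with GFP, 5.13, 4.91 and 5.14 with NR4A1 WT, and 4.04 and 4.14 with NR4A1 CEAA. The groups did not overlap, but the GFP arrays were far apart, and all these values are near or under the median of all probe sets. Its differences from GFP were 0.49 and -0.48 (adjusted p = 0.0696 and 0.0913, limma), and both passed in limma with an intensity trend (adjusted p = 0.0268 and 0.0442). The former also passed without GFP replicate 1 (adjusted p = 0.0137, limma) and the latter without GFP replicate 3 (adjusted p = 0.0267, limma). NR4A1 WT exceeded NR4A1 CEAA by 0.97 in this probe set (standard error 0.17, adjusted p = 0.00298, limma; Rank Product q = 0.0433). The other probe sets of NFKB2 were dimmer, at 3.39 to 4.63, with differences between NR4A1 WT and NR4A1 CEAA of -0.06 and -0.01 and no call, so this difference rests on 1 of 3 probe sets at a level not shown to be above background.

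NFKBIA encodes IkB alpha, the inhibitor that NFkB induces most directly. Its bright probe set, 201502_s_at, read 9.99, 9.97 and 10.10 with GFP, 9.99, 10.14 and 10.03 with NR4A1 WT, and 9.65 and 9.76 with NR4A1 CEAA. The GFP and NR4A1 WT arrays overlapped and both NR4A1 CEAA arrays were below them. NR4A1 WT differed from GFP by 0.03 (95% interval -0.13 to 0.19, adjusted p = 0.826, limma). NR4A1 CEAA differed from GFP by -0.32 (standard error 0.08, adjusted p = 0.028, limma), a factor of 1.24 downward, and Rank Product did not pass it (q = 0.679). This call ended without GFP replicate 1 (adjusted p = 0.063, limma), 2 (0.0522) or 3 (0.0891) and without NR4A1 CEAA replicate 1 (0.188) or 2 (0.079). NFKBIA was 0.35 higher with NR4A1 WT than with NR4A1 CEAA (adjusted p = 0.0106, limma), which ended without NR4A1 CEAA replicate 1 (adjusted p = 0.0951, limma). The other probe set of NFKBIA, at 4.33 to 4.64, is not shown to be above background and had no call.

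The remaining inhibitors had no call in any of the 3 comparisons. TNFAIP3 had 2 probe sets, the brighter of which read 5.64, 5.49 and 5.93 with GFP, 5.78, 5.84 and 5.97 with NR4A1 WT, and 5.69 and 5.63 with NR4A1 CEAA. The groups overlapped with GFP, and the differences were 0.18 (95% interval -0.08 to 0.43) and -0.02 (95% interval -0.31 to 0.26). NFKBIE, which encodes IkB epsilon, read 8.11, 8.01 and 7.98 with GFP, 7.93, 7.96 and 7.92 with NR4A1 WT, and 7.84 and 7.91 with NR4A1 CEAA. Its groups did not overlap, but the differences from GFP of -0.09 and -0.16 were small (adjusted p = 0.393 and 0.167, limma). NFKBIB, which encodes IkB beta, read 7.13 to 7.25 and 6.98 to 7.16 in its brighter probe sets, with differences from GFP of at most 0.04 in size. Its dimmest probe set, 228388_at, read 5.93, 5.51 and 5.64 with GFP, 5.21, 5.59 and 4.95 with NR4A1 WT, and 5.60 and 5.73 with NR4A1 CEAA. There NR4A1 WT differed from GFP by -0.44 (adjusted p = 0.126, limma), and by -0.61 (adjusted p = 0.0268, limma) without NR4A1 WT replicate 2, the array that lay within the range of GFP. It also passed with an intensity trend (adjusted p = 0.0472, limma), and its difference of NR4A1 WT from NR4A1 CEAA, -0.41 over all arrays, passed without the same array (difference -0.58, adjusted p = 0.0267, limma).

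**Figure D3:**
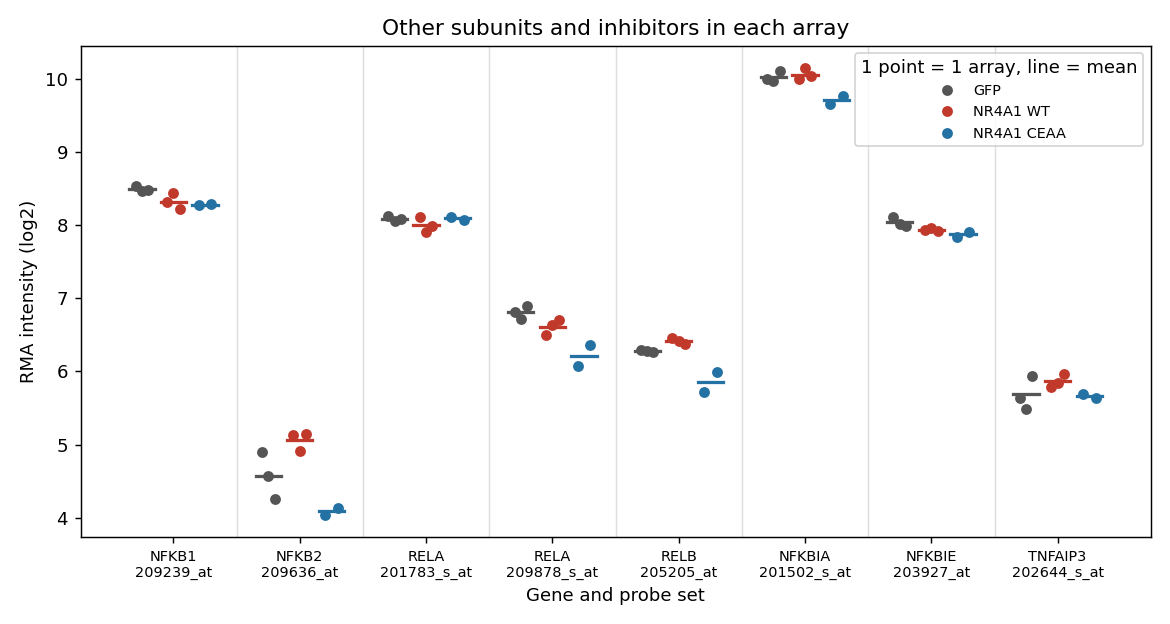
Log2 RMA intensity (y axis) of 8 probe sets of the other members (x axis) in each array, for 3 GFP, 3 NR4A1 WT and 2 NR4A1 CEAA arrays; points are single arrays and lines are group means. The NR4A1 CEAA arrays lie lowest in NFKB2 209636_at, RELA 209878_s_at, RELB, NFKBIA and, by a small margin, NFKBIE, and NR4A1 WT lies close to GFP in NFKBIA. NFKBIB is not plotted.

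The promoter windows of NFKBIA (chr14:35404700-35404999, minus strand) and TNFAIP3 (chr6:137867009-137867308, plus strand) are shown because both genes are classical NFkB targets whose levels were not called higher than with GFP after NR4A1 WT. They come from RefSeq (GRCh38.p14), and capitals mark matches to the kappaB consensus on either strand.
NFKBIA: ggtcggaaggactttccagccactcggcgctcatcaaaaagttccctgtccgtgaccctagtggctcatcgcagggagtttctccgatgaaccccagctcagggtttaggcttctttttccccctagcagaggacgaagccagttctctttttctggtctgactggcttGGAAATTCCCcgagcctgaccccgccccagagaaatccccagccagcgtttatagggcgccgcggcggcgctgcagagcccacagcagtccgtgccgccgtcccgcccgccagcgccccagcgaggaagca
TNFAIP3: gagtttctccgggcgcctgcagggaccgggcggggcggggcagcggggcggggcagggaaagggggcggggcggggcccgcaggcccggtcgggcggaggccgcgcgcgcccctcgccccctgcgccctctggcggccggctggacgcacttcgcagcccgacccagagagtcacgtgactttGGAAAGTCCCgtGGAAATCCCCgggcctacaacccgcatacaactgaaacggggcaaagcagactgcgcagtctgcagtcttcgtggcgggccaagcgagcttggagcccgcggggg
NFKBIA has 1 match, from -81 to -72, and TNFAIP3 has 2, from -67 to -58 and from -55 to -46, all on the minus strand of the window.

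The other genes of the pathway were followed by the brightest probe set of each, in 8 lists of 146 genes of which 129 had a probe set with 1 symbol. In all, NR4A1 WT had 15 of them called higher than GFP and 26 called lower (limma), where 8.18% and 8.76% of all 19775 genes were called. After NR4A1 CEAA, 11 were higher and 13 lower, against 5.95% and 10.5% of all genes, and Rank Product passed 0 of them (10 after NR4A1 WT). This split turned to 14 higher and 11 lower after a new quantile normalization, and to 8 and 16 with each array centered on its median. Its total of 24 calls fell to 7 without NR4A1 CEAA replicate 1, to 6 without replicate 2 of that group, and to 11, 13 and 10 without GFP replicates 1, 2 and 3. Between both forms, 26 were higher and 25 lower with NR4A1 WT, against 16.5% and 12.2% of all genes, and these 51 calls fell to 29 and 32 without NR4A1 CEAA replicates 1 and 2. The shares of all genes called without single arrays are not given here, so these falls cannot be read as particular to the pathway genes. The median difference was 0.00 after NR4A1 WT and -0.03 after NR4A1 CEAA, as over all genes (0.00 and -0.03).

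Among 9 ligand genes, 1 was higher and 1 lower after NR4A1 WT. For this and the lists that follow, 8.18% of all genes were called higher and 8.76% lower after NR4A1 WT. TNF, a main activator of the pathway, had a mean level of 6.09 in the 3 GFP arrays (SD 0.21), of 6.85 in the 3 NR4A1 WT arrays (SD 0.16) and of 5.93 in the 2 NR4A1 CEAA arrays (SD 0.17). It rose by 0.76 after NR4A1 WT (standard error 0.13, adjusted p = 0.00432, limma), and TNFSF14, a ligand of the lymphotoxin beta receptor, fell by 0.59. Of 20 receptor genes, 1 was higher and 4 lower. IL1RAP, the accessory chain of the interleukin 1 receptor, rose by 0.62, while TNFRSF1B and LTBR, receptors of TNF and of lymphotoxin, fell by 0.63 and 0.56. The 3 other probe sets of LTBR had no call. Of 18 adaptor and ubiquitin ligase genes, 2 were higher and 6 lower, the latter including several of Toll-like receptor signaling. IRAK3, which encodes an inhibitor of that pathway, had a mean level of 8.84 in the 3 GFP arrays (SD 0.16). Its mean was 7.73 in the 3 NR4A1 WT arrays (SD 0.11) and 9.27 in the 2 NR4A1 CEAA arrays (SD 0.03). It fell by 1.11 after NR4A1 WT (adjusted p = 0.000131, limma) and was 0.43 above GFP after NR4A1 CEAA (adjusted p = 0.0281, limma), which was no longer called when GFP replicate 1, GFP replicate 3 or either NR4A1 CEAA array was left out (adjusted p up to 0.154, limma). TRAF3, which restrains the noncanonical pathway, fell by 0.64 (adjusted p = 0.000355, limma), IRAK2 by 0.60 and IRAK1 by 0.51. RNF31 and SHARPIN, subunits of the linear ubiquitin ligase, had differences from GFP of -0.51 and -0.49 after NR4A1 CEAA (adjusted p = 0.00176 and 0.00352, limma) and of -0.01 and 0.15 after NR4A1 WT.

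Of 14 genes of the IkB kinase complexes, 4 were higher and 2 lower after NR4A1 WT. MAP3K7, which encodes the kinase TAK1, and its partner TAB2 each rose by 0.40 (adjusted p = 0.00317 and 0.00236, limma), and TBKBP1 fell by 0.39 after NR4A1 WT and by 0.53 after NR4A1 CEAA. TANK, an adaptor of the kinase TBK1, rose by 0.61 after NR4A1 CEAA (adjusted p = 0.0039, limma). Of 5 genes of IkB degradation, 1 was lower after each form, CUL1 after NR4A1 WT (difference -0.34) and RBX1 after NR4A1 CEAA (difference -0.26). Of 20 other inhibitor genes, 1 was higher and 3 lower after NR4A1 WT, and 2 were higher and 3 lower after NR4A1 CEAA. For this list and that of IkB degradation, 5.95% of all genes were called higher and 10.5% lower after NR4A1 CEAA. The deubiquitinase gene CYLD rose by 0.41 after NR4A1 WT while none of its 6 other probe sets was called, NFKBID, an atypical IkB gene, fell by 0.41, and TNFAIP8L2 fell by 0.42. NFKBIL1 was lower after NR4A1 CEAA, with a difference of -0.62 (adjusted p = 0.00286, limma). Of 10 genes of nuclear partners, 2 were higher and 2 lower after NR4A1 WT. RPS6KA5, a kinase of RELA, rose by 0.73 and the acetyltransferase gene CREBBP by 0.52, whereas RPS6KA4 and SETD6 fell by 0.54 and 0.31. EP300, the other acetyltransferase, differed from GFP by 0.07 after NR4A1 WT and by 0.46 after NR4A1 CEAA (adjusted p = 0.0193, limma).

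Of 33 genes known to be induced by NFkB, 4 were higher and 7 lower after NR4A1 WT, and 1 was higher and 5 lower after NR4A1 CEAA. The shares over all genes were 8.18% and 8.76% after NR4A1 WT, and 5.95% and 10.5% after NR4A1 CEAA. CD83, a surface marker of dendritic cells, read 7.87, 7.84 and 7.88 with GFP, 9.90, 9.91 and 9.91 with NR4A1 WT, and 7.95 and 7.93 with NR4A1 CEAA. It rose by 2.05 after NR4A1 WT (adjusted p = 3.1e-07, limma), and the survival gene BCL2A1 rose by 1.92 (adjusted p = 2.54e-05, limma). The chemokine gene CXCL8 fell by 1.65 and PLAU, which encodes urokinase, by 1.23 (adjusted p = 0.000223 and 0.000189, limma). After NR4A1 CEAA, CCL4 and the adhesion gene ICAM1 differed from GFP by -0.48 and -0.42 (adjusted p = 0.0303 and 0.00702, limma). The call of ICAM1 ended without NR4A1 CEAA replicate 1 (adjusted p = 0.0707, limma). That of CCL4 ended without NR4A1 CEAA replicate 1 (adjusted p = 0.189, limma) or 2 (0.098) and without GFP replicate 2 (0.0698) or 3 (0.0878).

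**Figure D4:**
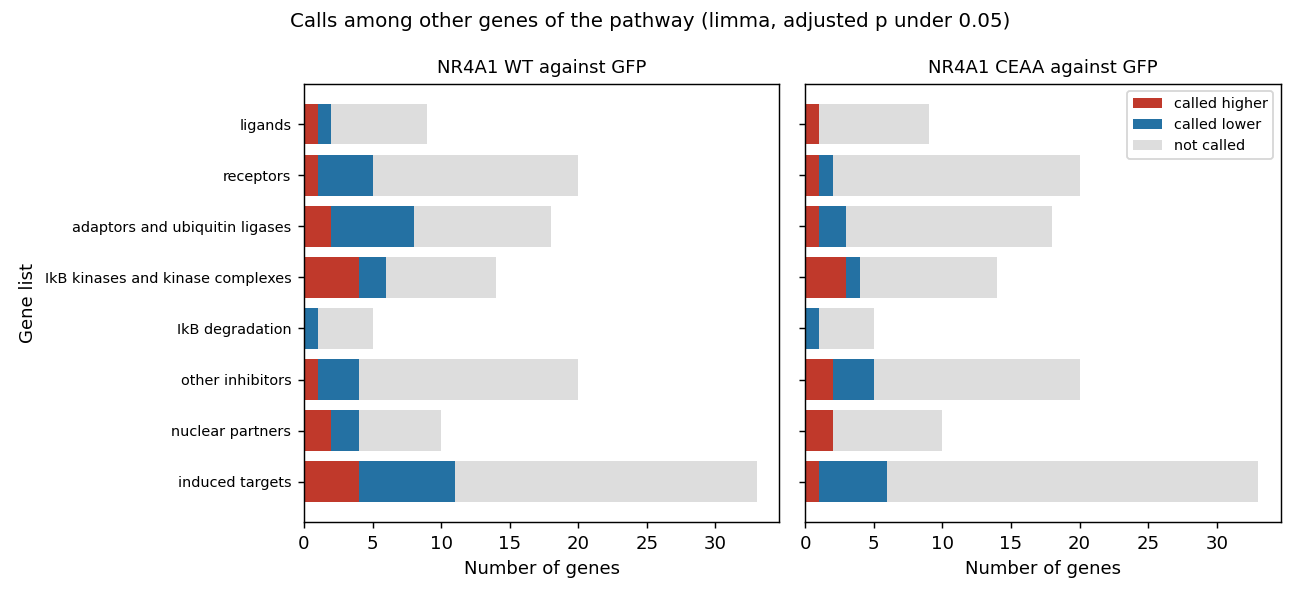
Number of genes (x axis) called higher (red), called lower (blue) and not called (grey) by limma in 8 lists of other pathway genes (y axis), for NR4A1 WT and NR4A1 CEAA against GFP. Calls in both directions occur among the 33 induced targets, with 4 higher and 7 lower after NR4A1 WT. Over all genes, 8.18% were called higher and 8.76% lower after NR4A1 WT, and 5.95% and 10.5% after NR4A1 CEAA.

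Some of these calls rested on single probe sets or arrays. Besides LTBR and CYLD, other probe sets of TNFSF14, IRAK1, IRAK2, CUL1, NFKBID, RPS6KA4 and CREBBP had no call after NR4A1 WT, and those of TANK, RNF31, NFKBID, RPS6KA5 and IL1A had none after NR4A1 CEAA. After NR4A1 WT, TLR2, TNFRSF1A, NKRF, MAP3K14 and CCL4 were called with differences from GFP of -0.30, -0.24, -0.27, 0.50 and -0.47, and each call ended when single arrays were left out (adjusted p up to 0.0768, 0.115, 0.0609, 0.0609 and 0.0739, limma). After NR4A1 CEAA the same held for TLR2, TNFRSF1A, NKRF, NFKBID, RBX1, RPS6KA5, EP300 and the dim IL1A, with differences from GFP of 0.28, -0.27, 0.24, -0.43, -0.26, 0.33, 0.46 and 0.36. MAP3K14 was dim as well, with a GFP mean of 4.65 below the median of all values, and CCL4 read 4.46 to 5.28, around that median.

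The genes whose levels followed those of the brightest REL probe set most closely over the 8 arrays were C21orf91, CBLB, NRIP1, IDH1 and AHR. Likeness was the root mean square difference in log2 level after subtracting each gene's GFP mean, taken over the brightest probe set of each of 19775 genes, with 228812_at for REL. It was 0.063 for C21orf91, 0.086 for CBLB, an E3 ubiquitin ligase gene of lymphocyte signaling, 0.103 for NRIP1, a corepressor of nuclear receptors, 0.110 for the dehydrogenase gene IDH1, and 0.113 for AHR, the aryl hydrocarbon receptor. Their differences from GFP were 1.00 to 1.16 after NR4A1 WT and 0.20 to 0.37 after NR4A1 CEAA, against 1.09 and 0.38 for REL 228812_at. The REL probe sets 235242_at and 206036_s_at differed from GFP by only 0.01 and 0.08 after NR4A1 CEAA. Likeness to these probe sets was not computed.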

How the data were processed

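RNA of Kasumi-1 cells was measured on Affymetrix U133 Plus 2.0 arrays. The deposited values are log2 intensities on which the authors had run RMA (background correction, quantile normalization and a summary per probe set) with RMA Express, whose version is not given in the sources used here. Values lay between 2.29 and 14.97, array medians lay between 4.755 and 4.802, and the number of arrays limits their precision. The platform annotation gave 1 gene symbol for 41091 of the 54613 probe sets, several for 1801 and none for 11721, and those with 1 were used. Of 19775 genes, 19734 matched the RefSeq gene table by identifier, and 0 symbols differed.

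Groups came from the sample titles. All 8 arrays entered 1 linear model with 3 group means in limma 3.58.1 (R 4.3.3, lmFit and eBayes, 3.52 prior and 8.52 total degrees of freedom), fitted on all 41091 probe sets, with p adjusted by Benjamini-Hochberg over all of them and called under 0.05. Rank Product, the test in the methods of the study, was recomputed from every cross-group array pair, with 100 permutations of centered values within arrays and a q of at most 0.05. The members and lists were chosen with earlier results of these data known. Named are all members, up to 4 genes per list called after NR4A1 WT and up to 2 called after NR4A1 CEAA, by size, and the 5 genes most like the member with the largest difference. On simulated data of 41091 probe sets in 8 arrays, log2 shifts of 0.25, 0.5, 1 and 2 were each given to 50 probe sets. With the shifts in the 3 NR4A1 WT arrays, limma called 0, 23, 44 and 49 of them, and 4 of 40891 unchanged ones. With the shifts in the 2 NR4A1 CEAA arrays it called 1, 19, 42 and 50, and 5 unchanged ones. Fewer probe sets were shifted here than were called in the data, which makes the adjustment of p harsher. These counts are therefore no detection limits for the data. The alternatives were an intensity trend, array weights, 2 groups only, a filter on dim probe sets (mean above 4.775), centering on the median, quantile normalization again, a replicate block, 1 probe set per gene, all rows, an adjusted p under 0.01, Rank Product, and each array left out.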

Additional observations from a re-analysis of the deposited data

How the results depend on the processing

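Of 1092 recomputed member results, 1038 kept their call or their lack of one, 36 lost a call, 18 gained one and 0 changed direction with a call. The 1038 include results that were called in neither setting. Over members and named pathway genes, 52 uncalled values changed sign without a call. The 3 REL calls after NR4A1 WT against GFP held under all alternatives, where 1 probe set per gene tested only 228812_at. In that comparison the count of 3 member probe sets became 6 with an intensity trend and 1 (of 9 genes) with 1 probe set per gene. After NR4A1 CEAA against GFP the count of 5 of 20 probe sets became 3 with a replicate block, and 3 of 9 with 1 probe set per gene. It became 1 at an adjusted p under 0.01 or by Rank Product. For NR4A1 WT against NR4A1 CEAA the count of 7 of 20 became 4 of 9 with 1 probe set per gene and 3 of 20 by Rank Product. Leaving out each array gave 3 to 4, 1 to 5 and 5 to 8 member probe sets in the 3 comparisons, where a group left with 1 array is assumed to vary like the others. Of the pathway genes, 41 were called after NR4A1 WT (10 by Rank Product). After NR4A1 CEAA 24 were called, but 43 with an intensity trend, 37 with array weights, 40 of 108 after the dim filter, 10 with a replicate block, 7 at 0.01 and 0 by Rank Product. Between both forms 51 were called, 30 at 0.01 and 4 by Rank Product. Leaving out each array gave 31 to 44, 6 to 29 and 29 to 52. The cause of these changes was not tested. Apart from Rank Product, the shares of all probe sets called under the alternatives are not given here. Same-numbered arrays of different groups had deviations that correlated at -0.032 to 0.071 (7 pairs), so the numbers were not taken as pairs. The replicate block gave 3 and 8 member probe sets in the other 2 comparisons.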
